A study of Homo sapiens with 8 samples.

Results

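The unfolded protein and amino acid stress response was followed through 36 genes in the colon cancer lines DKS-5 and DKO-3. The genes were listed by name, and each was represented by its brightest probe set among those that the platform annotation gives to exactly 1 gene. All 36 had such a probe set, out of 19775 genes on the array, and all 36 were bright enough to be tested, out of 12735 genes tested. They were divided into 21 genes of the ATF4 branch, 13 genes of the XBP1 and ATF6 branches and 2 sensor kinases of the endoplasmic reticulum (ER).

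RNA was hybridised to 8 arrays, 2 in each of 4 groups. DKS-5, labelled K-ras mutant, was measured after 12 h of hypoxia at 1% O2 and in normoxia at 21% O2. DKO-3, labelled K-ras wild-type and in other fields a K-ras knockout, was measured after 12 h at 1% O2 and at 21% O2. Both lines grew in standard medium, and the labels name no drug, nutrient withdrawal or other stressor beside low oxygen. Each genotype was a single cell line, so genotype and line cannot be told apart. The level of K-ras was not analysed here. The labels do not say whether samples within a group were grown separately, and the p-values then cover the spread among these arrays alone, which could be technical.

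Unfolded proteins in the ER are sensed by the kinases PERK (EIF2AK3) and IRE1 (ERN1) and by the membrane-bound factor ATF6. PERK phosphorylates the initiation factor eIF2, as the amino acid sensor GCN2 also does, which slows translation in general while the ATF4 message is translated more. ATF4 then switches on genes of amino acid uptake and synthesis, tRNA charging and stress signalling. IRE1 splices the XBP1 message, and spliced XBP1 and cleaved ATF6 switch on ER chaperones and the machinery of ER-associated degradation. The arrays measure message levels only, and neither eIF2 phosphorylation, ATF4 protein, XBP1 splicing nor ATF6 cleavage was measured. Low oxygen is known to engage PERK in many cell types.

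All values below are MAS5 signals (Affymetrix summary intensities) on arrays scaled to a common trimmed mean, and differences are in log2(signal + 16), so that changes of dim genes are understated. Signals of different probe sets are not comparable with each other. A gene is called changed at an adjusted p under 0.05 in limma, over all genes tested. The 3' to 5' signal ratio of the ACTB control probe sets, which rises with RNA degradation and with short amplification products, was 54.8 and 25.6 in DKS-5 hypoxia, 55.1 and 34.3 in DKS-5 normoxia, 11.5 and 11.0 in DKO-3 hypoxia, and 49.0 and 14.9 in DKO-3 normoxia. DKS-5 hypoxia replicate 2 stood apart, with the lowest signal of all 8 arrays for 12 of the 36 members (33.3%, against 18.7% of all genes tested). Over all genes tested it correlated with replicate 1 by 0.9755, while replicate 1 reached 0.9859 with an array of another group. Replicate 2 of DKO-3 hypoxia and of DKO-3 normoxia also correlated slightly more with another group (0.9835 each) than with their own replicates (0.9834 and 0.9828). DKO-3 normoxia replicate 1 had the highest signal for 10 members (27.8%, against 12.5% of all genes). Of 12 colon epithelium markers 9 were bright enough to be tested, and CDX1, LGALS4 and GPA33 were not. Their summed signal was 21988 to 23322 in DKS-5 hypoxia, 18572 to 20224 in DKS-5 normoxia, 20966 to 22683 in DKO-3 hypoxia and 19358 to 21489 in DKO-3 normoxia. KRT20, a marker of differentiated colonocytes, was at 6.19 to 15.5 in the 4 DKS-5 arrays and at 300.6 to 445 in the 4 DKO-3 arrays, whereas VIL1, the brush border protein villin, was at 54.7 to 103 in the DKS-5 arrays and at 12.8 to 17.5 in the DKO-3 arrays. Averaged over both oxygen levels, 4 of the 9 markers had positive and 5 negative line differences, with 1 called higher in DKS-5 (VIL1) and 2 lower (KRT20 and KRT19). Of the non-epithelial markers only COL1A1 and HBB could be tested, and the whole list summed to 68.4 to 152.

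The branches differ in the sequence elements that their factors read, and the promoters of the genes that the results turn on are shown with the C/EBP-ATF and ER stress elements in capitals and the hypoxia response core not marked. RefSeq promoters (assembly GRCh38.p14, 250 bases before to 50 after the start) were found for 33 of the 36 members, and for PSPH, SHMT2 and SLC7A11 none was matched. The motifs, searched on both strands, were the C/EBP-ATF element TGATGNAA, bound by ATF4 with C/EBP partners, the ER stress element (CCAAT, 9 further bases, CCACG), the ER stress element II (ATTGG, 1 further base, CCACG), the UPR element TGACGTGG and the hypoxia response core ACGTG. The ER stress elements share CCACG, and ACGTG lies within the UPR element and can overlap CCACG read on the other strand. A stretch of 120 bases is shown for HERPUD1 (chr16:56931942-56932061, plus strand), ASNS (chr7:97872409-97872528, minus strand), XBP1 (chr22:28800570-28800689, minus strand) and TRIB3 (chr20:381175-381294, plus strand), each 5' to 3'. HERPUD1 carries both a C/EBP-ATF element and an ER stress element II, ASNS a C/EBP-ATF element and XBP1 an ER stress element, while in the TRIB3 window none of the motifs was matched.
HERPUD1: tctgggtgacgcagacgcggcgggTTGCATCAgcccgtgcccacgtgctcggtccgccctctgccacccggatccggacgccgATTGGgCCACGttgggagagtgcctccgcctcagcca
ASNS: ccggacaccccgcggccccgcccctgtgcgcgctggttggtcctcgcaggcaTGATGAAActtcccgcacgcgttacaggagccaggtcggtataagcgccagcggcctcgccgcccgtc
XBP1: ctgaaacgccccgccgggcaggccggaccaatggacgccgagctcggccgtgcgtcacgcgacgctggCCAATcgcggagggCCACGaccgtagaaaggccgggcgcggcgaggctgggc
TRIB3: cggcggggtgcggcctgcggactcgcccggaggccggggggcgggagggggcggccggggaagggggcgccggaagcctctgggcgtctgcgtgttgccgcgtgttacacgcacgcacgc

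The ER stress elements of the main chaperone genes are shown for comparison, as matched letters in capitals around the 9 bases between them. They lie at chr9:125241391-125241409 (minus strand) for HSPA5, chr12:103930216-103930234 and chr12:103930321-103930339 (plus strand) for HSP90B1, chr19:12938384-12938402 (plus strand) for CALR and chr22:49918554-49918572 (plus strand) for CRELD2. HSP90B1 holds the element in both orientations.
HSPA5: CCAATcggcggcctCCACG
HSP90B1, upstream: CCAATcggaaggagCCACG
HSP90B1, downstream: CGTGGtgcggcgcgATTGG
CALR: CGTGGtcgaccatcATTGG
CRELD2: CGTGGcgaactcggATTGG

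Further C/EBP-ATF elements, at chr15:40953256-40953275 (plus strand) in CHAC1 and at chr16:70289680-70289699 (minus strand) in AARS1, hold the same core as HERPUD1.
CHAC1: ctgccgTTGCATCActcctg
AARS1: tcgcagTTGCATCAgccaag

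The C/EBP-ATF element was matched in 6 of 18 ATF4-branch promoters (33.3%), namely those of AARS1, ASNS, ATF3, CARS1, CHAC1 and SLC3A2, in 1 of 13 promoters of the XBP1 and ATF6 branches, and in 1003 of all 27305 promoters (3.67%). The ER stress element was matched in 5 of 13 promoters of the XBP1 and ATF6 branches (38.5%), in 0 of 18 of the ATF4 branch and in 22 of all promoters (0.0806%). The ER stress element II was matched in HERPUD1 and SDF2L1 (2 of 13), against 15 of all promoters (0.0549%). The UPR element was matched in 0 members and in 217 of all promoters (0.795%). The hypoxia response core was matched in 3 of 18 ATF4-branch promoters (16.7%), in 6 of 13 of the XBP1 and ATF6 branches (46.2%) and in 5900 of all promoters (21.6%). These matches are descriptions of letters, not of binding. The genes were placed in branches by their known roles, so the shares are no independent test of the branches.

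**Figure D1:**
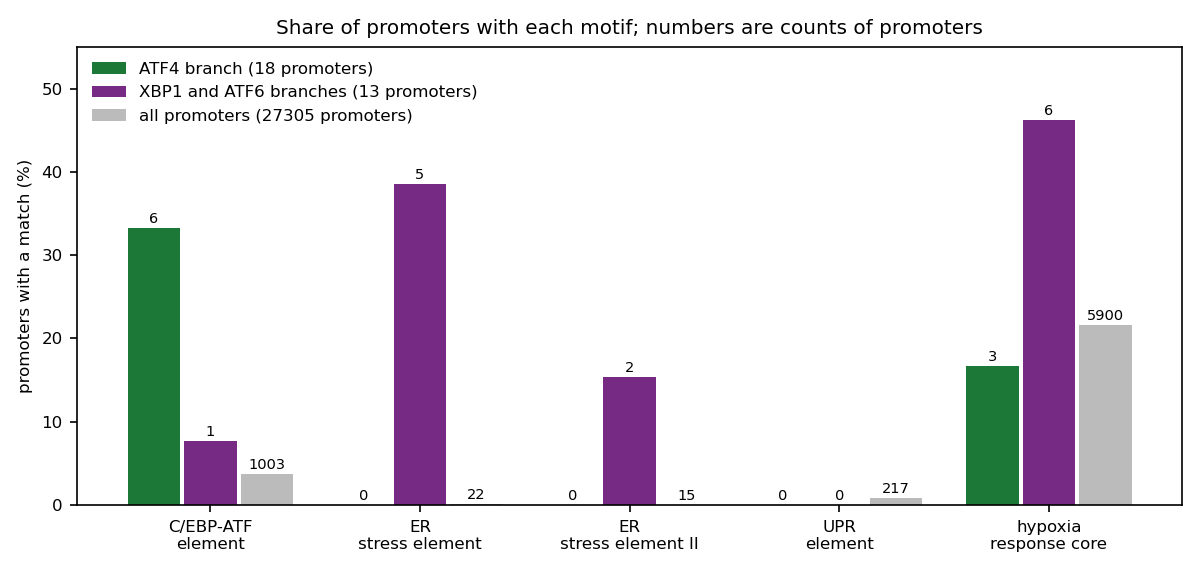
Share of promoters, in percent, that hold each of 5 motifs in the ATF4 branch (18 promoters), the XBP1 and ATF6 branches (13) and all RefSeq promoters (27305), with counts above the bars. The C/EBP-ATF element stands at 33.3% in the ATF4 branch and the ER stress element at 38.5% in the XBP1 and ATF6 branches, against 3.67% and 0.0806% of all promoters.

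The first question was what 12 h of hypoxia did to these genes. With both lines averaged, 1 of 36 members was called, TRIB3, where 1.19% of all genes tested were (152 of 12735; 1.14% higher and 0.055% lower). In DKS-5 alone 0 members were called, against 0.503% of all genes, and in DKO-3 alone 0 members, against 0.346%. An unadjusted p under 0.05 in limma was met by 2 members with higher and 3 with lower values in DKS-5, by 3 and 3 in DKO-3, and by 3 and 4 averaged. Over all 12735 genes it was met by 567 (4.45%) with higher and 314 (2.47%) with lower values in DKS-5, and by 996 (7.82%) and 342 (2.69%) in DKO-3. Averaged over both lines it was met by 1240 (9.74%) of all genes with higher and 584 (4.59%) with lower values. In RNA of whole cultures, fewer cells of a type and less RNA per cell cannot be told apart. The 95% interval of the averaged difference lay within 2-fold either way for 33 of 36 members, against 95.3% of all genes, and the exceptions were TRIB3, SLC7A11 and SLC3A2.

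TRIB3, a pseudokinase induced by ATF4 that feeds back on it, had signals of 208 and 290 in DKS-5 hypoxia, against 157 and 137 in DKS-5 normoxia. In DKO-3 it had 448 and 262 in hypoxia, against 120 and 172 in normoxia. Every hypoxic array lay above every normoxic array, as for 4.09% of all genes tested, and the hypoxic arrays of DKO-3 were the most spread. The averaged difference was 0.93 ± 0.20 (SE, 4 arrays at each oxygen level; 1.90-fold), with a limma adjusted p of 0.0362. The differences within the lines were 0.69 in DKS-5 (adjusted p = 0.652) and 1.17 in DKO-3 (adjusted p = 0.152), and their difference was not past the threshold (-0.48 ± 0.41, adjusted p = 1.00). The averaged call ended without DKS-5 hypoxia replicate 2, either DKS-5 normoxia array, DKO-3 hypoxia replicate 1 or DKO-3 normoxia replicate 1 (0.74 to 0.97, adjusted p of 0.105 to 0.235). It also ended with the ACTB ratio as a covariate (0.75, adjusted p = 0.346), without the filter and without array scaling. A second TRIB3 probe set, below the filter, gave 0.40.

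The other feedback and effector genes of the ATF4 branch, CHAC1 (which degrades glutathione), SESN2 (an inhibitor of mTORC1 signalling) and PPP1R15A (which directs the phosphatase to eIF2), had averaged differences of 0.14 to 0.33, none past the threshold. CHAC1, at 11.0 to 22.6 over the 8 arrays, and PPP1R15A, at 6.96 to 28.2, were near the added 16. Their probe sets could therefore hardly show a change. SLC7A11, the cystine importer, showed the opposite direction to TRIB3. Its signals were 774 and 550 in DKS-5 hypoxia, against 920 and 1125 in DKS-5 normoxia, and 538 and 817 in DKO-3 hypoxia, against 1288 and 1065 in DKO-3 normoxia. All hypoxic arrays lay below all normoxic ones, as for 2.14% of all genes tested. The difference with both lines averaged, -0.72 ± 0.17, missed the threshold (limma adjusted p = 0.0623). Its dimmer probe sets gave -0.89 and -0.22. SLC7A11 stood at -0.84 without DKS-5 hypoxia replicate 1 and at -0.86 without DKO-3 hypoxia replicate 2. Each of these leaves the lower array to stand for its group. SLC3A2, the heavy chain that SLC7A11 and SLC7A5 both need at the cell surface, stood at 0.56 (adjusted p = 0.287).

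The message of ATF4 itself was at 1951 and 1321 in DKS-5 hypoxia, against 1685 and 1548 in DKS-5 normoxia, and at 2652 and 2963 in DKO-3 hypoxia, against 1824 and 2077 in DKO-3 normoxia. The DKS-5 groups overlapped, and in DKO-3 all hypoxic arrays lay higher, as for 25% of all genes tested. The differences were -0.01 (95% interval -0.43 to 0.41) and 0.52 (0.11 to 0.94), neither past the threshold (limma adjusted p = 0.999 and 0.388). The difference between these responses was not past it either (-0.53 ± 0.28). ASNS, which makes asparagine, was at 846 and 547 in DKS-5 hypoxia, against 1025 and 1106 in DKS-5 normoxia, and at 1278 and 1231 in DKO-3 hypoxia, against 1468 and 1296 in DKO-3 normoxia. The hypoxic arrays lay below the normoxic ones in each line, as for 15.7% of all genes tested within DKS-5 and 17.1% within DKO-3. With both lines averaged ASNS stood at -0.38 (adjusted p = 0.269). Its second, dim probe set did not show this fall, at -0.01 for DKS-5, 0.22 for DKO-3 and 0.10 averaged. Without DKS-5 hypoxia replicate 1, which leaves the lowest array to stand for its group, ASNS passed the threshold in DKS-5 (-0.94, adjusted p = 0.0317) and averaged (-0.54, adjusted p = 0.0281). DDIT3, the stress factor CHOP, stood at -0.45 averaged (adjusted p = 0.306). Over the 21 ATF4-branch genes 11 differences were positive and 10 negative, with a median of 0.09, beside a median of 0.03 over all genes tested.

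None of the 9 ER chaperones and folding enzymes was called between oxygen levels. HSPA5, the master chaperone BiP, had signals of 6186 and 4296 in DKS-5 hypoxia, against 5475 and 6015 in DKS-5 normoxia, and 4715 and 5243 in DKO-3 hypoxia, against 5937 and 6419 in DKO-3 normoxia. Its averaged difference was -0.23, with a 95% interval of -0.48 to 0.01 (adjusted p = 0.365), which leaves out a rise of 2-fold. Without DKS-5 hypoxia replicate 1, HSPA5 passed the threshold at -0.36 (adjusted p = 0.0207). CALR, the calcium-binding chaperone calreticulin, was at 840 and 1531 in DKS-5 hypoxia, against 751 and 669 in DKS-5 normoxia, and at 958 and 1004 in DKO-3 hypoxia, against 708 and 1028 in DKO-3 normoxia. The high value of DKS-5 hypoxia replicate 2 decided its difference in DKS-5 (0.67, adjusted p = 0.622), which was 1.09 and past the threshold without DKS-5 hypoxia replicate 1 (adjusted p = 0.0342). With both lines averaged CALR stood at 0.43 (adjusted p = 0.308), and at 0.65 without that array (adjusted p = 0.0263). EDEM1, which hands misfolded glycoproteins to degradation, showed the same array high, with 359 and 625 in DKS-5 hypoxia, against 371 and 331 in DKS-5 normoxia. In DKO-3 it had 436 and 456 in hypoxia, against 384 and 319 in normoxia (averaged 0.38, adjusted p = 0.362). Over the 13 genes of the XBP1 and ATF6 branches 4 averaged differences were positive and 9 negative, with a median of -0.14, beside 0.03 over all genes.

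**Figure D2:**
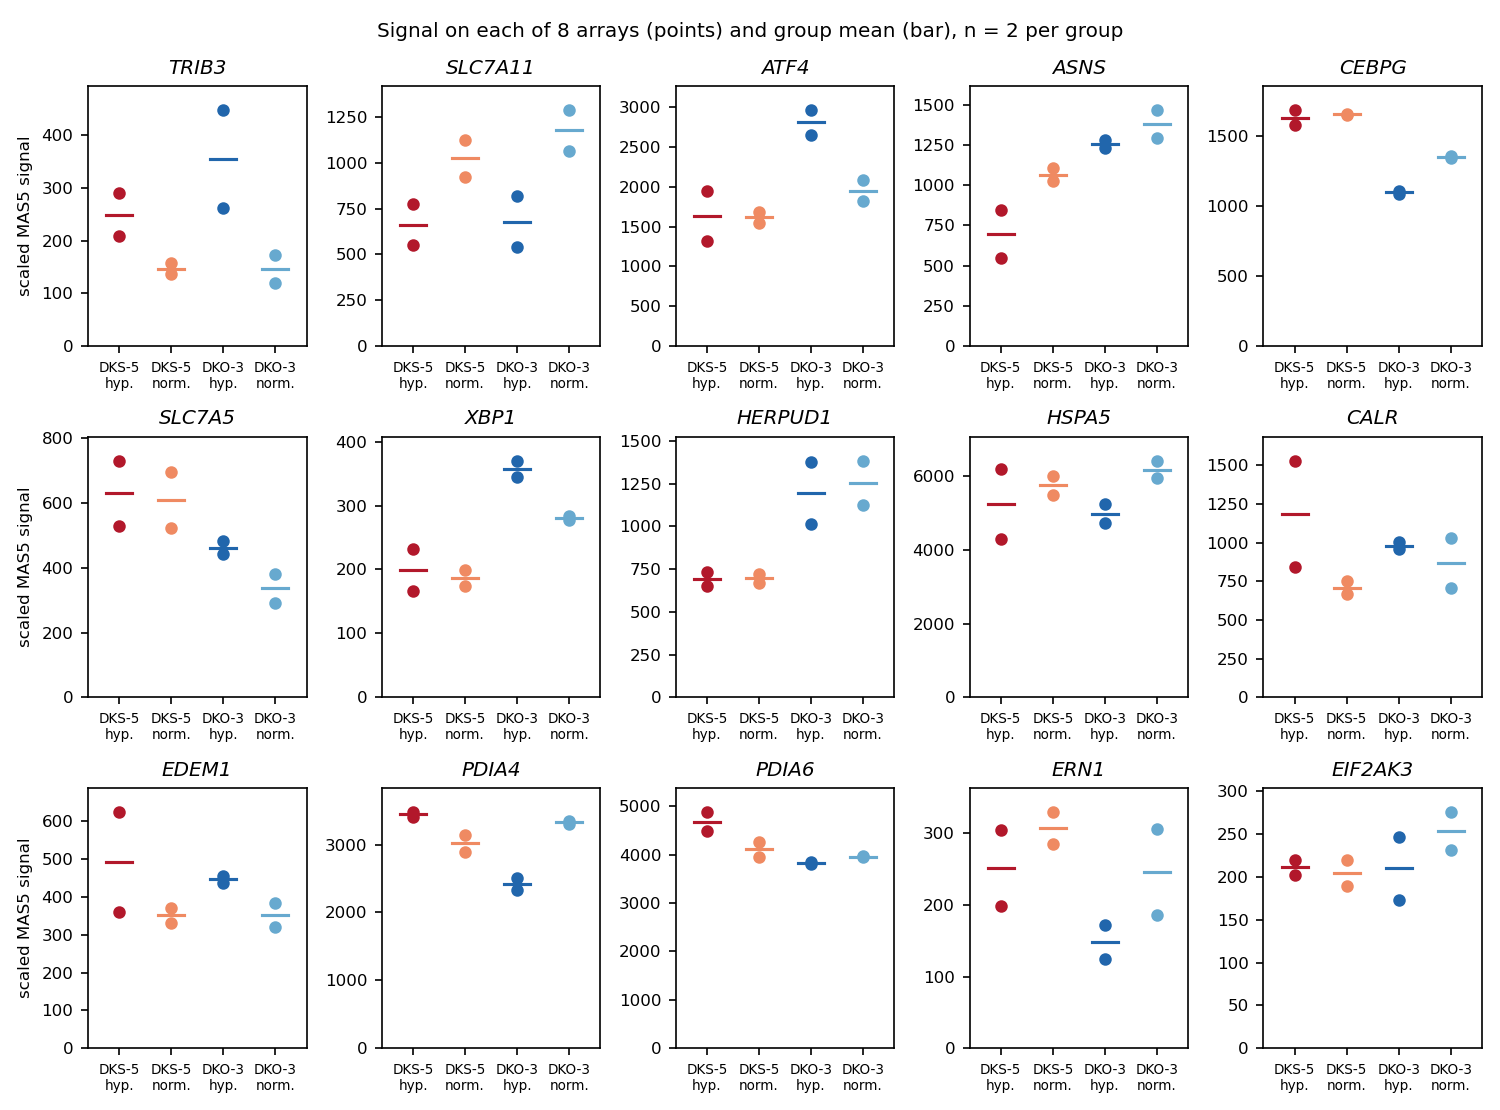
Scaled MAS5 signal (linear axis from 0) of 15 members on each array (points) with group means (bars), in the order DKS-5 hypoxia, DKS-5 normoxia, DKO-3 hypoxia, DKO-3 normoxia, n = 2 per group. HERPUD1 and XBP1 separate the lines at both oxygen levels, TRIB3 and SLC7A11 separate the oxygen levels, and CALR and EDEM1 each have 1 high array in DKS-5 hypoxia.

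The sensor kinases were not called either. ERN1 had 199 and 305 in DKS-5 hypoxia, against 284 and 330 in DKS-5 normoxia, and 124 and 171 in DKO-3 hypoxia, against 305 and 186 in DKO-3 normoxia (averaged -0.47, adjusted p = 0.307). EIF2AK3 had 220 and 203 in DKS-5 hypoxia, against 189 and 220 in DKS-5 normoxia, and 174 and 246 in DKO-3 hypoxia, against 276 and 232 in DKO-3 normoxia. Its groups overlapped in both lines (averaged -0.11, adjusted p = 0.821).

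**Figure D3:**
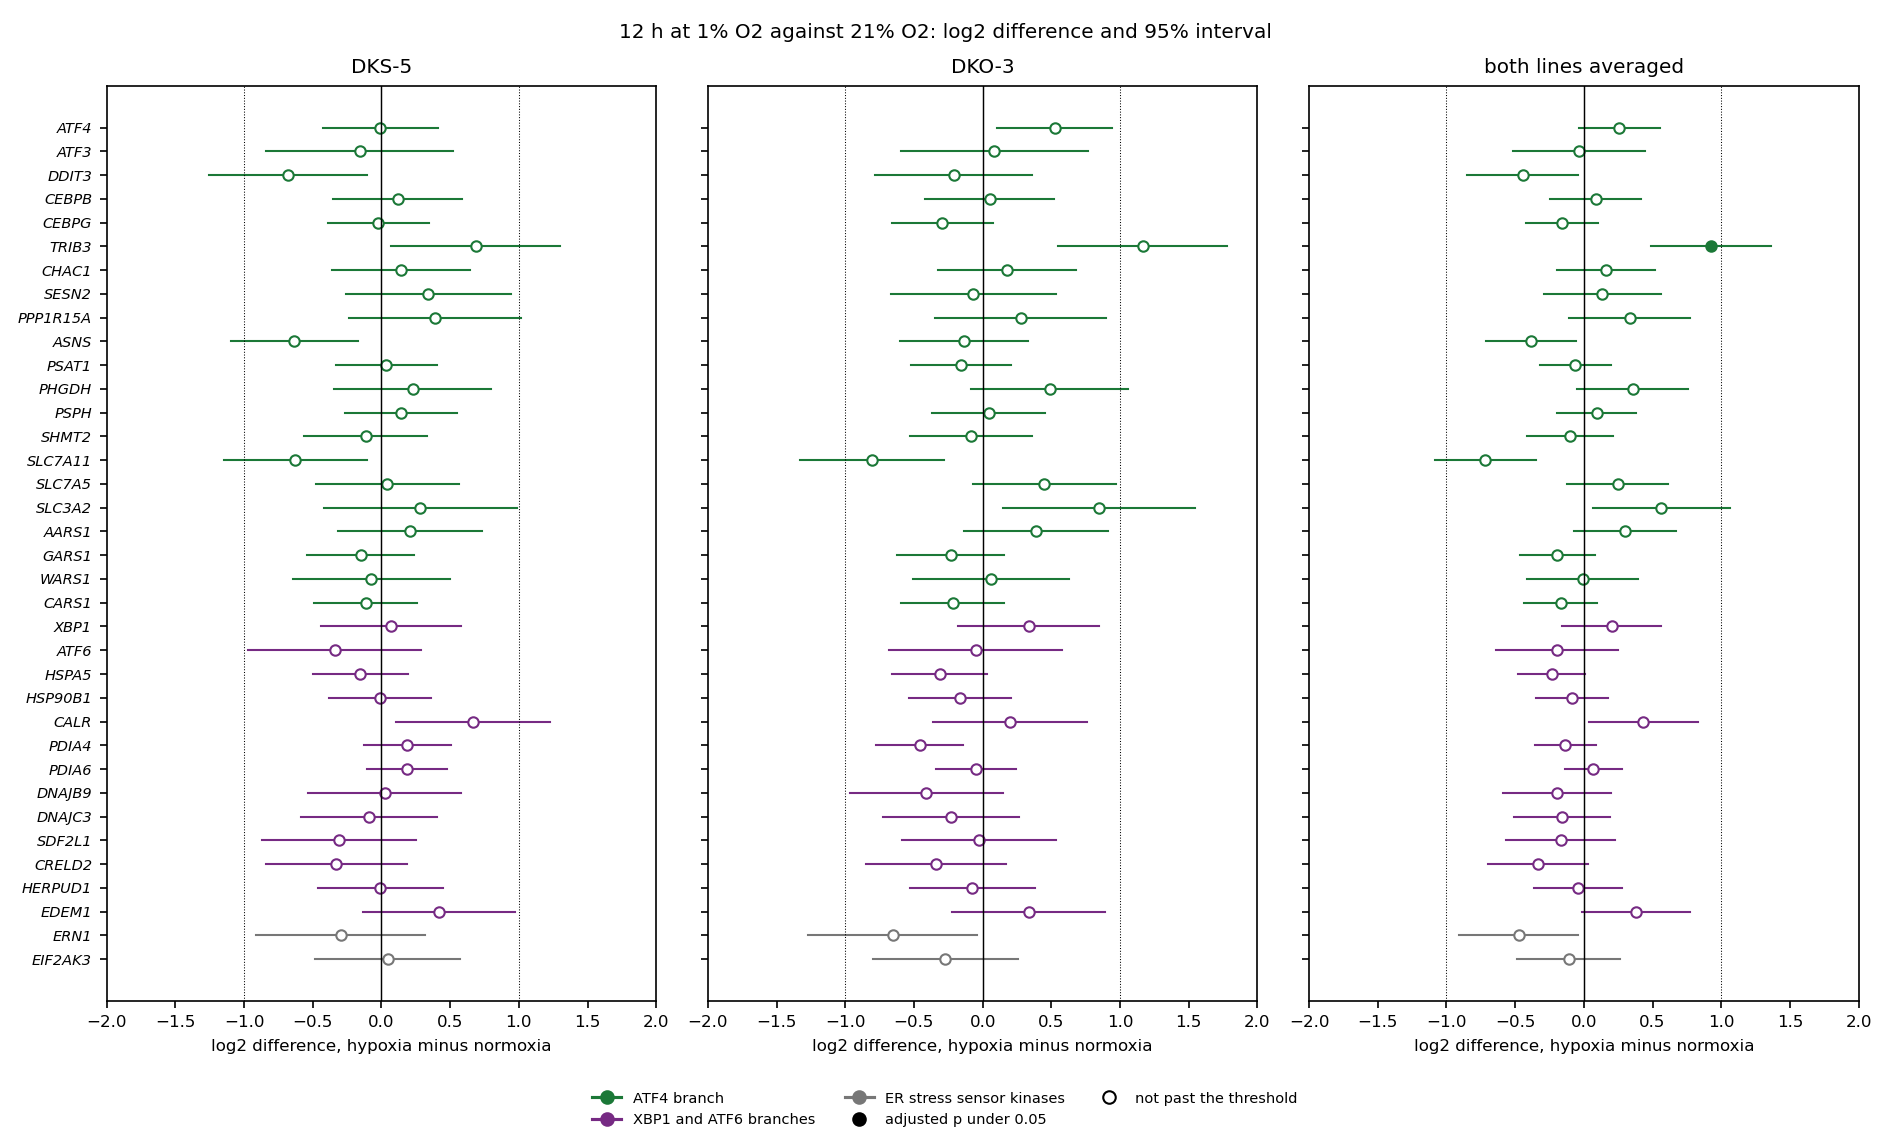
Log2 difference of hypoxia minus normoxia (points) with its 95% interval (lines) for the 36 members in DKS-5, in DKO-3 and with both lines averaged, 2 arrays per group, filled where the adjusted p was under 0.05. TRIB3 at 0.93 in the averaged panel is the sole filled point, and SLC7A11 lies farthest to the left there at -0.72.

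Whether the response differed between the lines was tested as the difference of the hypoxia differences (DKS-5 minus DKO-3). No member was called and no gene of the whole table was (0% of all genes tested), while limma gave 1 member and 334 of all genes at an unadjusted p under 0.05. That member was PDIA4, a disulfide isomerase of the ER, described here because its values were seen to oppose between the lines. It had 3485 and 3404 in DKS-5 hypoxia, against 3148 and 2898 in DKS-5 normoxia, and 2332 and 2511 in DKO-3 hypoxia, against 3309 and 3352 in DKO-3 normoxia. The arrays of DKS-5 lay higher in hypoxia and those of DKO-3 lower, with a difference of 0.65 ± 0.21 (limma adjusted p = 1.00). Arrays opposed in either direction were seen for 3.09% of all genes tested. A dimmer PDIA4 probe set gave 0.45. The interval of the difference of responses lay within 2-fold for 20 of 36 members, against 55.1% of all genes, so that differences of that size could not be bounded for the remainder.

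The next question was how the lines differed from each other. Averaged over both oxygen levels, 6 of 36 members were called, 2 higher and 4 lower in DKS-5, where 9.12% of all genes tested were (1161, with 2.98% higher and 6.14% lower). In hypoxia alone 2 members were called, both lower in DKS-5, against 4.38% of all genes, and in normoxia 0 members, against 2.54%. The members' share was not tested against that of all genes.

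HERPUD1, an ER membrane protein of the degradation machinery, had the smallest p among the members. Its signals were 654 and 733 in DKS-5 hypoxia, against 1015 and 1379 in DKO-3 hypoxia, and 671 and 722 in DKS-5 normoxia, against 1385 and 1125 in DKO-3 normoxia. All 4 DKS-5 arrays lay below all 4 DKO-3 arrays, as for 8.46% of all genes tested. The HERPUD1 difference was -0.79 ± 0.15 on the log2 scale (limma adjusted p = 0.00311), and its dim second probe set gave -0.58. The call held in 15 of 16 alternative settings and ended with the ACTB ratio as a covariate (-0.86, adjusted p = 0.0614).

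XBP1 was at 167 and 232 in DKS-5 hypoxia, against 345 and 370 in DKO-3 hypoxia, and at 175 and 200 in DKS-5 normoxia, against 284 and 277 in DKO-3 normoxia. All DKS-5 arrays lay below all DKO-3 arrays, as for 8.46% of all genes tested, with a difference of -0.68 ± 0.17 (limma adjusted p = 0.0193). Spliced and unspliced messages were not measured apart. The call ended without any 1 array of DKS-5 normoxia or of the DKO-3 groups (-0.72 to -0.63, adjusted p of 0.0549 to 0.105), with the ACTB ratio as a covariate (-0.53, adjusted p = 0.293) and with the mean of both probe sets (-0.45, adjusted p = 0.062), the second of which was below the filter and gave -0.22. The 9 chaperones and folding enzymes had averaged line differences of -0.16 to 0.18 and none was called, HSPA5 being at -0.03 (95% interval -0.27 to 0.22).

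ATF4 and ASNS were lower in DKS-5 than in DKO-3. The ATF4 signals of 1951 and 1321 in DKS-5 hypoxia, against 2652 and 2963 in DKO-3 hypoxia, gave -0.80 ± 0.20 (limma adjusted p = 0.0322). In normoxia the values were 1685 and 1548 in DKS-5 and 1824 and 2077 in DKO-3 (-0.27, adjusted p = 0.740), and the average over both oxygen levels was -0.53 ± 0.14 (adjusted p = 0.0235), with 1 DKS-5 array above 1 DKO-3 array. ASNS gave -0.87 ± 0.22 in hypoxia (limma adjusted p = 0.0360) and -0.62 ± 0.15 averaged (adjusted p = 0.0188), with all 4 DKS-5 arrays, at 547 to 1106, below all 4 DKO-3 arrays, at 1231 to 1468. Such a separation of the lines, with DKS-5 lower, was seen for 8.46% of all genes tested. A second, dim ASNS probe set gave 0.22.

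The calls of ATF4 and ASNS ended when any of several single arrays was left out. In hypoxia, ATF4 lost its call without DKS-5 hypoxia replicate 2 or any 1 array of DKS-5 normoxia or DKO-3 hypoxia (-0.88 to -0.52, adjusted p of 0.0571 to 0.156), and ASNS without any 1 array but DKS-5 hypoxia replicate 1 (-0.89 to -0.56, adjusted p of 0.0507 to 0.246). Averaged over both oxygen levels, ATF4 lost it without any 1 array of DKS-5 normoxia or DKO-3 hypoxia or DKO-3 normoxia replicate 2 (-0.57 to -0.49, adjusted p of 0.0618 to 0.112). ASNS lost the averaged call without any 1 array of DKS-5 normoxia or DKO-3 hypoxia or DKO-3 normoxia replicate 1 (-0.65 to -0.57, adjusted p of 0.050 to 0.0934). With the mean of all its probe sets ASNS shrank to -0.38 in hypoxia (adjusted p = 0.316) and to -0.20 averaged (adjusted p = 0.419), neither past the threshold. With the ACTB ratio as a covariate the averaged values were -0.63 for ATF4 (adjusted p = 0.145) and -0.86 for ASNS (adjusted p = 0.051).

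Both members called higher in DKS-5 belong to the ATF4 branch too. SLC7A5, the transporter of large neutral amino acids, had 529 and 731 in DKS-5 hypoxia, against 483 and 442 in DKO-3 hypoxia, and 522 and 697 in DKS-5 normoxia, against 292 and 382 in DKO-3 normoxia. Its arrays in DKS-5 all lay above those in DKO-3, as for 5.43% of all genes tested (0.62 ± 0.17, limma adjusted p = 0.0348). With the ACTB ratio as a covariate the call held (0.99, adjusted p = 0.0285). It ended without DKS-5 hypoxia replicate 2, DKO-3 normoxia replicate 1 or any 1 array of DKS-5 normoxia or DKO-3 hypoxia (0.51 to 0.72, adjusted p of 0.0533 to 0.194), without array scaling (0.40, adjusted p = 0.194) and without the filter on dim probe sets (adjusted p = 0.0736). CEBPG, a dimerisation partner of ATF4, had 1684 and 1573 in DKS-5 hypoxia, against 1108 and 1083 in DKO-3 hypoxia, and 1648 and 1657 in DKS-5 normoxia, against 1353 and 1338 in DKO-3 normoxia (0.43 ± 0.12, limma adjusted p = 0.0395). Its second probe set lay the other way, at -0.34, so the direction for CEBPG rests on the brighter probe set. The CEBPG call ended without any 1 array of DKS-5 normoxia or of the DKO-3 groups (0.42 to 0.44, adjusted p of 0.0900 to 0.163). It also ended with the ACTB ratio as a covariate (0.39, adjusted p = 0.312), with quantile normalization (0.39, adjusted p = 0.0573), without array scaling (0.20, adjusted p = 0.363) and with the mean of both CEBPG probe sets (0.042, adjusted p = 0.888).

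The remaining members were not called between the lines. In the ATF4 branch 15 of 21 averaged differences were negative, with a median of -0.22, beside -0.01 over all genes tested, and an unadjusted p under 0.05 in limma was met by 2 with higher and 8 with lower values in DKS-5. Over all genes it was met by 1172 (9.2%) with higher and 1695 (13.3%) with lower values. Among the aminoacyl-tRNA synthetases, which load amino acids onto tRNAs, GARS1, WARS1 and CARS1 stood at -0.32, -0.46 and -0.36 (adjusted p of 0.153, 0.157 and 0.0918), while AARS1 stood at 0.01. With the mean of all probe sets WARS1 and CARS1 passed the threshold (-0.55 and -0.62, limma adjusted p of 0.0326 and 0.0215). With quantile normalization GARS1 and CARS1 passed it (-0.41 and -0.43, limma adjusted p of 0.0396 and 0.0314). None of these genes passed with the ACTB ratio as a covariate. The serine synthesis genes PHGDH and PSPH were at -0.38 and -0.34, and the stress sensor SESN2 at -0.45 (adjusted p of 0.251, 0.152 and 0.199). PSAT1, also of serine synthesis, lay the other way at 0.10, though its second probe set gave -0.53. The dimmer PSPH probe sets gave -0.58 and 0.33. Of the 5 amino acid synthesis genes, 2 had positive and 3 negative differences. In the XBP1 and ATF6 branches 8 of 13 differences were negative, with a median of -0.03. PDIA6, a disulfide isomerase, had 4887 and 4479 in DKS-5 hypoxia, against 3808 and 3849 in DKO-3 hypoxia, and 3956 and 4266 in DKS-5 normoxia, against 3952 and 3967 in DKO-3 normoxia (averaged 0.17, adjusted p = 0.331). ERN1 was at 0.52 (adjusted p = 0.140).

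The array that stood apart and its replicate moved some of these values across the threshold. Without DKS-5 hypoxia replicate 1, the averaged line difference was past it for GARS1 (-0.46, adjusted p = 0.00799), CARS1 (-0.46, adjusted p = 0.0142) and DDIT3 (-0.63, adjusted p = 0.0348), and in hypoxia for DDIT3 (-1.05, adjusted p = 0.0419) and GARS1 (-0.56, adjusted p = 0.0485). Without DKS-5 hypoxia replicate 2, it was past it for SHMT2 averaged (0.37, adjusted p = 0.0259), and in hypoxia for XBP1 (-1.03, adjusted p = 0.0453) and the chaperone gene HSP90B1 (0.49, adjusted p = 0.0489). In normoxia, a comparison that neither array enters, HERPUD1 stayed at -0.83 without either of them. There only the spread shared by all groups and the adjustment over genes changed. In DKS-5 hypoxia and DKO-3 hypoxia, where the ACTB ratios differed most, the line comparison also depended on array scaling, since without it the median over all genes moved by -0.38 and 12 members were called lower in DKS-5. Over all genes 64 were then called higher and 2309 lower, against 178 higher and 380 lower with scaling, and for the averaged line difference 138 higher and 1632 lower, against 379 higher and 782 lower.

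**Figure D4:**
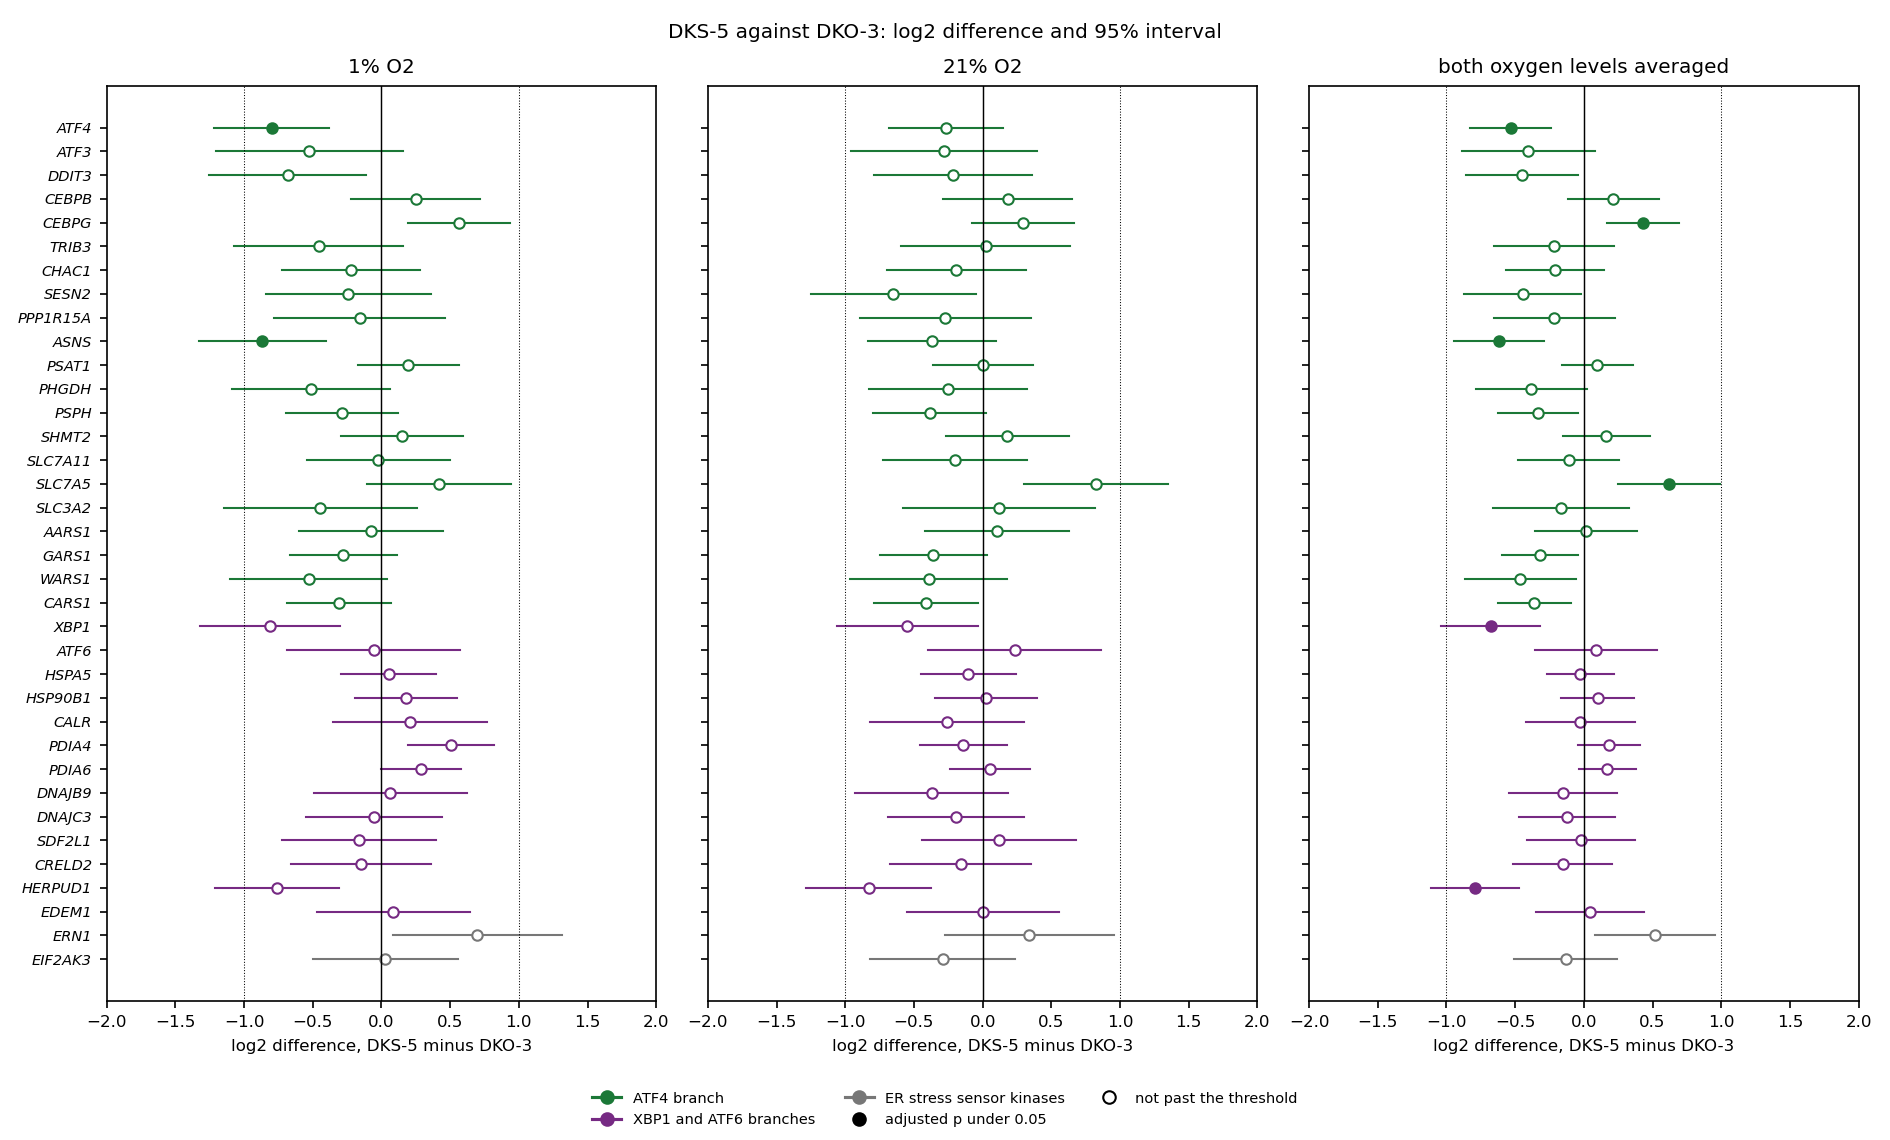
Log2 difference of DKS-5 minus DKO-3 (points) with its 95% interval (lines) for the 36 members at 1% O2, at 21% O2 and averaged, 2 arrays per group, filled where the adjusted p was under 0.05. ATF4 (-0.53), ASNS (-0.62), XBP1 (-0.68) and HERPUD1 (-0.79) lie to the left in the averaged panel, and CEBPG (0.43) and SLC7A5 (0.62) to the right.

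Other genes of the pathway were taken as 86 in 5 lists, of which 79 had a probe set and 74 were tested. In hypoxia with both lines averaged, where 1.19% of all genes tested were called, 1 of 17 tested ATF4-linked genes was. This was GDF15, a stress-induced cytokine, with 595 and 541 in DKS-5 hypoxia, against 212 and 339 in DKS-5 normoxia, and 476 and 346 in DKO-3 hypoxia, against 181 and 213 in DKO-3 normoxia (1.01 ± 0.19, limma adjusted p = 0.0100). None was called in hypoxia among 13 other cytosolic aminoacyl-tRNA synthetases, 10 genes of eIF2 and its regulators, 19 of ER folding and degradation, and 15 of ER translocation and traffic, and in these 4 lists an unadjusted p under 0.05 in limma was met by 5 genes with higher and 4 with lower values, where over all genes tested it was met by 9.74% and 4.59%. Between the lines, averaged over both oxygen levels, 9.12% of all genes tested were called, and 2 of the 17 ATF4-linked genes were. NUPR1, a stress-induced chromatin protein, was lower in DKS-5, at 19.2 and 13.5 in DKS-5 hypoxia, against 82.9 and 46.1 in DKO-3 hypoxia (averaged -1.32, adjusted p = 0.00146), and SLC1A4, a neutral amino acid transporter, was higher (0.83, adjusted p = 0.000567). Of the 19 genes of ER folding and degradation, 2 were lower in DKS-5, EDEM3 at -0.71 and DNAJB11 at -0.49 (adjusted p of 0.00835 and 0.0451), and 2 were higher, DNAJC10 at 0.59 and ERO1B at 0.62 (adjusted p of 0.0431 and 0.0397). Unlike those of the members, the calls in these lists were not checked in the alternative settings or against other probe sets. None was called between the lines in the other 3 lists, where an unadjusted p under 0.05 in limma was met by 0 of 38 genes with higher and 3 with lower values, against 9.2% and 13.3% of all genes.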

How the data were processed

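Affymetrix arrays of 8 samples were used. Per the submitters' processing notes the deposited probe set intensity values, on a linear scale, were made by the authors with MAS5, whose version and target intensity are not given in the sources used here. Per the labels' protocols total RNA was amplified with an Ovation system and labelled with biotin. Amplification and array differences can change ratios between arrays. The 2% trimmed means of the deposited intensities ran from 133 to 202 (1.52-fold), and each array was scaled to 172.9.

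Values were taken as log2(signal + 16). Genes whose brightest probe set averaged above percentile 40 of the means of 54675 probe sets, a signal of about 13.8, were tested (12735). The platform annotation gave 1 gene to 41091 probe sets, of which 41037 matched RefSeq by gene ID. Limma 3.58.1 in R 4.3.3 was fitted with 1 mean per group over all 8 arrays (eBayes with a trend, 4 residual and 11.3 prior degrees of freedom). Tests were two-sided and p-values were adjusted over all genes tested by Benjamini-Hochberg. The 7 comparisons were hypoxia in each line and averaged, the difference of the responses, and DKS-5 against DKO-3 in each oxygen level and averaged. The method was also run on simulated data with independent noise for each gene. These held no array effects or RNA quality differences, so they cannot show how such differences move the calls. The number of arrays limits the precision.

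The members and lists were chosen with earlier results of these data known. Values of every array are given for members called in any comparison and for the 3 of each branch with the smallest p in hypoxia and in the line difference, both averaged, and PDIA4 was added after its values were seen. Samples that share a number were not paired, because nothing says that they share a culture or day. Over all genes, the differences between replicates correlated by 0.33 between the hypoxia groups of the lines and by 0.21 between the normoxia groups. Between groups of different oxygen level they correlated by -0.09 to 0.10. What lies behind these correlations was not tested. Alternatives were other pseudocounts, scaling, filter, probe set summary, an RNA quality covariate (log2 of the ACTB 3' to 5' ratio), a replicate block, fits of fewer arrays and each array left out.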

Additional observations from a re-analysis of the deposited data

Results flagged for a closer look

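PDIA4 and PDIA6 were the members whose arrays moved in opposite directions with hypoxia in the lines, every array of DKS-5 hypoxia lying above DKS-5 normoxia and every array of DKO-3 hypoxia below DKO-3 normoxia. PDIA4 changed by 0.19 in DKS-5 and -0.46 in DKO-3 on the log2 scale, a difference of 0.65 (limma adjusted p = 1). PDIA6 stood at 0.19 and -0.05, a difference of 0.24 (limma adjusted p = 1). Of its other bright probe sets 1 was also opposed (0.22 in DKS-5 and -0.12 in DKO-3) and the other 2 were positive in both lines (0.16 and 0.05, and 0.26 and 0.07). Such opposed arrays were seen in either direction for 2 of 36 members (5.56%) and 393 of 12735 genes (3.09%).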

How the results depend on the processing

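Of the 9 calls of members, that of HERPUD1 between the lines held in 15 of 16 alternative settings. The other calls kept their direction in all settings run and were lost in 7 to 11 of 16 or 17. With hypoxia averaged over both lines, 0 members were called without the filter, without array scaling or with the RNA quality covariate. In the line comparison in normoxia 1 member was called with the RNA quality covariate (SLC7A5, 1.03) and 1 when the fit held just those 4 arrays (HERPUD1). In the line comparison in hypoxia the count was 0 with the RNA quality covariate, with no filter and when the fit held just those 4 arrays, 1 with the mean of all probe sets, and 12 without array scaling. The averaged line comparison gave 1 member with the RNA quality covariate and 3 with no filter. Leaving out single arrays gave 0 to 2 members for hypoxia in DKS-5, 0 to 0 in DKO-3 and 0 to 5 averaged, 0 to 0 for the difference of responses, and 0 to 1, 0 to 4 and 1 to 9 between the lines in normoxia, in hypoxia and averaged. Over all genes the same settings gave 29 to 294 calls for hypoxia in DKS-5, 1 to 69 in DKO-3 and 58 to 764 averaged, and 119 to 443, 135 to 761 and 630 to 1517 between the lines in normoxia, in hypoxia and averaged. HSPA5 turned to -0.40 between the lines in hypoxia without array scaling (adjusted p = 0.0422), against 0.05 with it. Without scaling the median of all genes moved by -0.22 for hypoxia in DKS-5, 0.17 in DKO-3, and -0.20 for the averaged line difference. The cause of these changes was not tested.

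With the sample number as a replicate block, 2 members were called in averaged hypoxia (TRIB3, and SLC7A11 at -0.72, adjusted p = 0.0293), 1 between the lines in normoxia (HERPUD1, -0.83, adjusted p = 0.0360) and 4 in hypoxia (XBP1 and HERPUD1 beside ATF4 and ASNS).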
